A study of Mus musculus with 11 samples.

Results

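The bone morphogenetic protein (BMP) genes described here were 10 rows of a table of read counts per gene, taken by symbol out of 22619 genes. They were the ligands Bmp2, Bmp4 and Bmp7, the type I receptor Bmpr1b, the inhibitory Smads Smad6 and Smad7, and the inhibitors of DNA binding Id1, Id2, Id3 and Id4. All 10 symbols were in the table. Only Id2, Smad7 and Bmpr1b stood above a mean of 1 CPM (read counts scaled to the library's total) over the 11 libraries, and 5 members were kept by the filter on low counts in any comparison.

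BMP ligands bind pairs of type I and type II receptor kinases, which phosphorylate Smad1, Smad5 and Smad9. These join Smad4, enter the nucleus and switch on targets, of which the Id genes are the best known. Smad6 and Smad7 are themselves induced and shut the pathway down. Id proteins have a helix-loop-helix but no DNA-binding basic region, so they hold E proteins such as Tcf3, Tcf4 and Tcf12 in inactive pairs. In the cerebellum, BMPs oppose the Hedgehog-driven division of granule cell progenitors, the cells that give rise to Hedgehog-type medulloblastoma.

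Poly(A) RNA was read from SMB21, a medulloblastoma line from adult Ptch1tm1Mps/J mice that was grown as neurospheres, so every group carried the Ptch mutation. The groups were the parental line untreated (n = 3) or given sonidegib, an inhibitor of the Hedgehog transducer Smoothened, for 24 h (n = 2), Sufu-mutant clones R13 and R1 (n = 2) and Ofd1-mutant clones (n = 4). The Ofd1 libraries came from 3 clones, since R14 was read as a pair (replicates 1 and 2) beside R16 and R25. All clones were picked in a transposon screen for drug resistance, and neither the sonidegib dose nor the drug in the clones' medium is given in the sources used here.

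Libraries held 24308451 to 38241595 counts, so 3 counts, the limit that a count of 0 allows, equalled 0.0786 to 0.127 CPM. Gli1, the Hedgehog target that checks the drug label, was at 7.68 and 8.72 CPM with sonidegib and at 219 to 242 CPM in parental cells. Ofd1 was at 9.30 to 23.3 CPM in the Ofd1 mutants against 35.3 to 42.8 CPM in parental cells, and Sufu, with 27.6 to 29.5 CPM in parental cells, had 2.79 in R13 and 17.8 in R1, but also 5.54 in sonidegib replicate 2 and 11.99 to 19.3 in the Ofd1 libraries. Granule progenitor markers were present in every library, at a summed 1896.2 to 3233.4 CPM for 8 genes. Parental replicates 1 and 2 and sonidegib replicate 1 stood apart from the other libraries on the second principal component. Long transcripts were under-represented in sonidegib replicate 2, with a Spearman correlation of -0.584 between exon length and level relative to the median library, against -0.0988 to 0.227 elsewhere.

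The ligand members were at trace level. Bmp2, a ligand that pushes granule progenitors out of division, had 2, 2 and 8 counts in parental replicates 1, 2 and 3 and 4 and 5 counts with sonidegib. It had 1 count in R13, 0 in R1 and 10, 8, 10 and 6 counts in the Ofd1 libraries, or at most 0.326 CPM. Both Sufu clones were thus the lowest libraries and the Ofd1 clones lay among or above the parental ones. The Sufu order rests on a few counts, as parental replicates 1 and 2 also lay under 3 counts. The pooled 95% Poisson intervals overlapped, at 0.000523 to 0.115 CPM in Sufu clones and 0.0599 to 0.203 CPM in parental cells. Bmp4, the ligand of the dorsal neural tube, had 1 count in parental replicate 1, 1 count in R1 and none in any other library. The 0 of 4 Ofd1 libraries allows up to 0.0225 CPM over the group. Bmp4 overlaps 2 genes on the opposite strand in the GENCODE M21 annotation, and whether counting used strand is not given in the sources used here.

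Bmp7, a ligand that pairs with Bmp2 or Bmp4, had 11 counts in R1 and 2 in R13. It had 1, 0, 5 and 3 counts in R14 replicate 1, R14 replicate 2, R16 and R25, 1, 1 and 0 counts in parental cells and 0 in both sonidegib libraries. Pooled over the group, the Sufu clones stood at 0.269 CPM (95% Poisson interval 0.143 to 0.459) and parental cells at 0.0193 CPM (0.00234 to 0.0698). These intervals cover counting error only, and R1 held most of the Sufu counts. None of the 3 ligand members passed the filter, so they have no test.

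Of 18 BMP-family ligands listed, 14 had a mean under 1 CPM and 3 reached 10 CPM, namely Bmp3, Gdf1 and Gdf11. Per kb of exon, Gdf1 stood at 10.5 CPM, Gdf11 at 2.50 and Bmp3 at 2.31, as means over the 11 libraries. Bmp3, a family member known to oppose other BMPs in bone, measured 8.04, 4.90 and 6.15 CPM in parental replicates 1, 2 and 3 and 1.54 and 2.83 CPM with sonidegib, while R13 held 38.3 and R1 22.1 CPM. The Ofd1 libraries held 19.3 and 6.60 CPM for R14, 10.5 for R16 and 67.6 for R25. The sonidegib libraries lay below the parental range and the Sufu clones above it, while R14 replicate 2 lay inside it. The log2 differences from parental cells by edgeR were -1.55 ± 0.48 (SE) with sonidegib, 2.25 ± 0.33 in Sufu mutants and 2.04 ± 0.76 in Ofd1 mutants, with adjusted p of 0.253, 0.178 and 0.282. DESeq2 gave adjusted p of 0.0192, 5.21e-07 and 0.170 for the same comparisons.

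**Figure D1:**
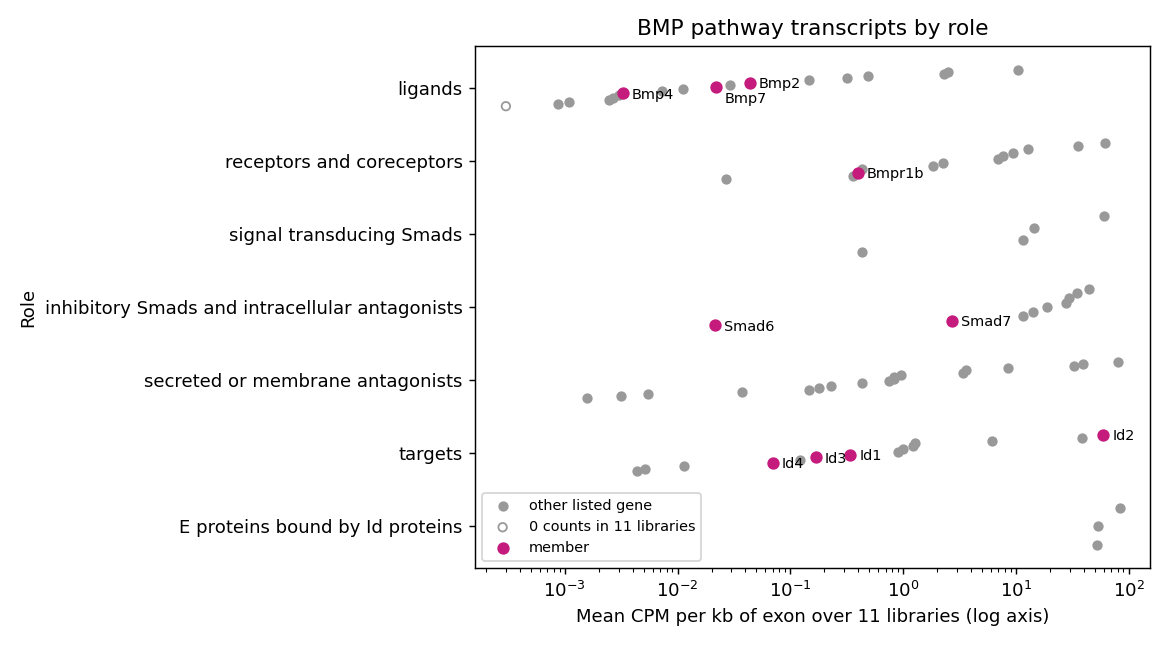
Mean level of each BMP pathway gene over 11 libraries, in CPM per kb of exon on a log axis, by role; members are coloured and named, other listed genes are grey, and an open point marks a gene with 0 counts. The ligand members lie under 0.05 CPM per kb, and Id2 at 59.6 CPM per kb lies far to the right of Id1, Id3 and Id4.

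The receptor member was low and uneven between libraries. Bmpr1b, which codes for the type I receptor ALK6, had 3.34 and 4.45 CPM in parental replicates 1 and 2 but 0.942 CPM in replicate 3, and likewise at 3.44 CPM in the first and 0.943 CPM in the other sonidegib library. It was at 1.74 CPM in R13, 0.211 in R1, 0.991 and 0.740 in the R14 pair, 5.16 in R16 and 3.57 in R25. In the parental line the high values fell in the 3 libraries that stood apart on the second principal component. Among the Ofd1 mutants the R14 pair was low and the other clones were high, so the clones of 1 genotype covered the whole parental range. Its log2 differences from parental cells were -0.41 ± 0.81, -1.57 ± 1.00 and -0.15 ± 0.75 for sonidegib, Sufu and Ofd1 (edgeR adjusted p = 0.819, 0.652 and 0.955). The Sufu difference was -3.77 without R13 and -0.75 without R1.

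Of 12 receptors and coreceptors listed, 7 had a mean of at least 10 CPM, 3 lay between 1 and 10 CPM and 2 under 1 CPM. Bmpr1a, the type I receptor ALK3, had a mean of 35.2 CPM per kb of exon over the 11 libraries, against 0.398 CPM per kb for Bmpr1b. Rgma, a BMP coreceptor of the repulsive guidance family, was at 61.7 CPM per kb. In CPM, Rgma was at 111 and 107 with sonidegib and at 189, 190 and 281 in parental cells. The groups did not overlap, and the log2 difference was -1.01 ± 0.26 (edgeR adjusted p = 0.191, DESeq2 0.0106). Bmpr1a ranged from 171 to 243 CPM over all libraries, and its log2 difference from parental cells was between -0.13 and 0.04 in the 3 groups.

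The Smads that carry the signal were present throughout. The common partner Smad4 was at 60.2 CPM per kb, Smad5 at 14.6 and Smad1 at 11.6, while Smad9 was at 2.32 CPM before length scaling. Smad5 was at 79.1 and 54.6 CPM with sonidegib against 89.0, 97.2 and 125 CPM in parental cells, a log2 difference of -0.64 ± 0.26 (edgeR adjusted p = 0.353). Smad4 measured 252 and 140 CPM in the sonidegib libraries, above and below all 3 parental values (241, 249 and 177 CPM), with a log2 difference of -0.19 ± 0.31.

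The inhibitory Smads differed from each other in level. Smad6, which mainly blocks BMP receptors, had 0 to 7 counts per library, with 0 in both Sufu clones, in R16 and in parental replicate 1. It did not pass the filter. Smad7, which blocks both BMP and TGF-beta receptors, was at 2.74 CPM per kb of exon against 0.0214 CPM per kb for Smad6.

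Smad7 stood higher in all clones than in parental cells. Parental replicates 1, 2 and 3 held 7.44, 9.08 and 10.2 CPM, and the sonidegib libraries 8.28 and 6.60 CPM. R13 held 13.7 CPM and R1 18.1 CPM, the R14 pair 12.1 and 11.1 CPM, R16 14.7 CPM and R25 20.7 CPM. Neither clone class overlapped the parental libraries, while sonidegib did. The means were 8.91 ± 1.39 CPM (SD, n = 3) in parental cells, 15.9 ± 3.08 CPM (n = 2) in Sufu mutants and 14.6 ± 4.33 CPM (n = 4) in Ofd1 mutants. The log2 difference was 0.83 ± 0.25 (SE) in Sufu mutants and 0.72 ± 0.25 in Ofd1 mutants. Neither passed over all genes (edgeR adjusted p = 0.438 and 0.252, unadjusted p = 0.0147 and 0.0197).

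Between the clone classes the Smad7 difference, Ofd1 minus Sufu, was -0.13 ± 0.29 with a 95% interval of -0.81 to 0.56. With sonidegib it was -0.26 ± 0.34 from parental cells (edgeR adjusted p = 0.711). R25, the clone with the most Smad7, raised the Ofd1 value, which was 0.50 without it. Against parental replicate 3 alone the difference was 0.63 in Sufu and 0.52 in Ofd1 mutants.

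Of the Id genes, Id2 alone was expressed at more than trace level. In every library 98.9% to 99.7% of the reads counted on the 4 Id genes were on Id2. The lowest share, in sonidegib replicate 1, had a 95% Wilson interval of 98.6% to 99.2%, which covers counting error only. Per kb of exon the means were 59.6 CPM for Id2, 0.339 for Id1, 0.169 for Id3 and 0.0702 for Id4. The E proteins that Id proteins bind were at 83.5 CPM per kb for Tcf3, 53.8 for Tcf12 and 52.7 for Tcf4.

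The stretches before the start sites of Id2 and Id4 are shown because these genes lie at the top and bottom of that range. They come from RefSeq (GRCm38.p6), not the mm9 build named for the reads. The windows reach 250 bases upstream of the RefSeq start, and bases that GENCODE M21 places in an exon were left out. Capitals mark GGCGCC, a palindrome that BMP Smads can bind, and the CCAAT box, which reads ATTGG on the other strand. The Id2 stretch is chr12:25096254-25096342 on the minus strand and the Id4 stretch is chr13:48260866-48261115 on the plus strand, both 5′ to 3′.
Id2: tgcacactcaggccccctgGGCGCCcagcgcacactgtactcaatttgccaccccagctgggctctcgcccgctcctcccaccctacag
Id4: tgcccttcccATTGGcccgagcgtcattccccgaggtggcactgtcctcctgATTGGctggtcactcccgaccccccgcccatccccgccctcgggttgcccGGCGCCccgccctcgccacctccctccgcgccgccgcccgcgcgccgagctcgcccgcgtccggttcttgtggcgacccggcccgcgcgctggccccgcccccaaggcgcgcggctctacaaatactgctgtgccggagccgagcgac

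Over the whole window of 250 bases and on both strands, GGCGCC was found 1 time before Id2, starting 231 bases from the start site, 1 time before Id4, at 148 bases, and 0 times before Id3. Of 32851 RefSeq promoter windows of that length 9.59% held it. CCAAT was found 3 times before Id2, all in the part not printed, 2 times before Id4 and 0 times before Id3, and 33.8% of windows held it. TATAAA was in none of the 3 windows and in 12.4% of all. Of the 250 bases, GENCODE M21 places 161 in an exon for Id2, 250 for Id3 and 0 for Id4, so the windows are not alike. In the whole windows the abundant Id2 and the trace gene Id4 shared both GGCGCC and CCAAT. Outside exons Id2 held GGCGCC but not CCAAT, and Id3 had no bases to compare. Such a match is not evidence of a bound site.

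**Figure D2:**
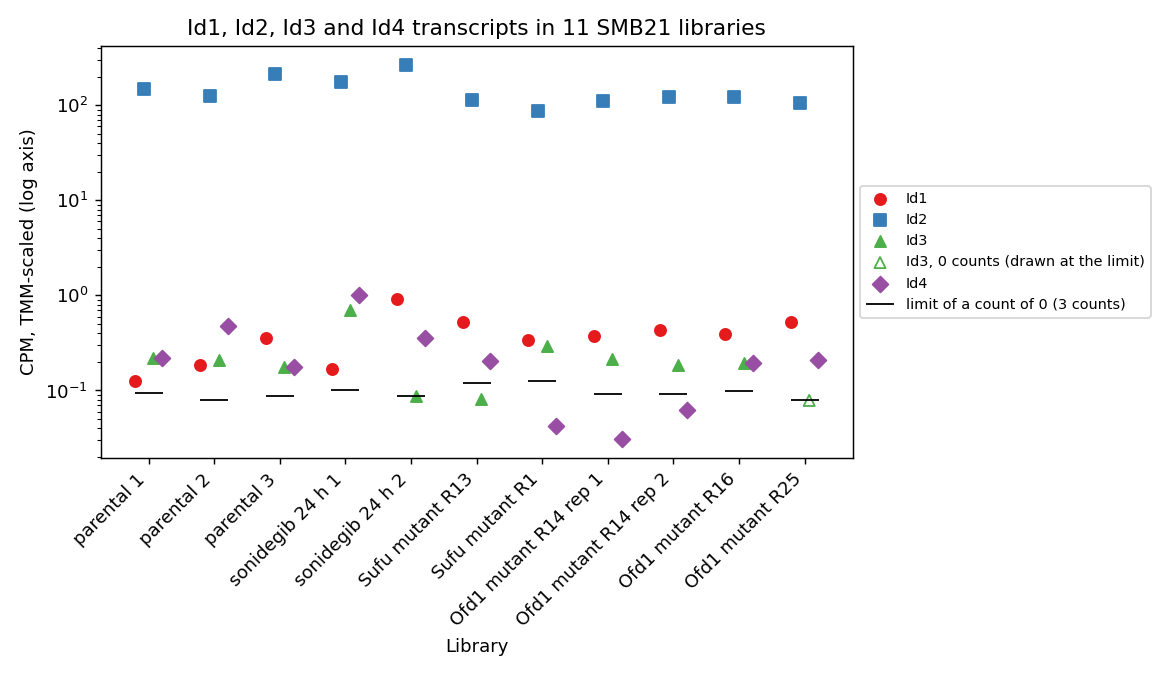
CPM of Id1, Id2, Id3 and Id4 in each of 11 libraries on a log axis; black dashes mark the limit that a count of 0 allows (3 counts) and the open triangle is the library with 0 Id3 counts, drawn at that limit. Id2 lies between 88.1 and 268 CPM in every library, and the other Id genes at or under 1.00 CPM.

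Id2, which holds back neuronal and glial differentiation, had its highest group mean in sonidegib-treated cells and its lowest in the clones. Parental replicates 1, 2 and 3 held 149, 127 and 216 CPM, and the sonidegib libraries 176 and 268 CPM. R13 held 114 CPM and R1 88.1 CPM, the R14 pair 110 and 122 CPM, R16 122 CPM and R25 106 CPM. All 6 clone libraries were thus under the lowest parental library, by a small margin for R14 replicate 2 and R16, and sonidegib overlapped the parental range. The means were 164 ± 46.4 CPM (SD, n = 3) in parental cells, 222 ± 64.9 CPM (n = 2) with sonidegib, 101 ± 18.3 CPM (n = 2) in Sufu mutants and 115 ± 8.25 CPM (n = 4) in Ofd1 mutants.

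The log2 difference of Id2 from parental cells was 0.43 ± 0.30 (SE) with sonidegib, -0.70 ± 0.26 in Sufu mutants and -0.51 ± 0.18 in Ofd1 mutants. None passed over all genes (edgeR adjusted p = 0.503, 0.485 and 0.249, unadjusted p = 0.196, 0.0363 and 0.0190). Parental replicate 3 set much of the size in the clones, since without it the difference was -0.45 in Sufu and -0.27 in Ofd1 mutants, and with it as the only control -1.10 and -0.91. The sonidegib difference was 0.08 without replicate 2, in which long transcripts were under-represented, and 0.67 without replicate 1. Within parental replicates 1 and 2 and sonidegib replicate 1 it was 0.33, with no test. Ofd1 and Sufu mutants did not pass a test against each other, with a log2 difference of 0.18 ± 0.15 and a 95% interval of -0.17 to 0.52.

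Marker sums differed across the groups as well. The 6 astrocyte markers summed to 489 and 498 CPM with sonidegib, 241 to 336 CPM in parental cells, 161 and 163 CPM in Sufu mutants and 204 to 268 CPM in Ofd1 mutants. Gfap, the astrocyte filament, was at 101 and 105 CPM with sonidegib and 13.97 to 35.4 CPM in parental cells, while the water channel Aqp4 had 0 counts in all of these libraries. The sum was mostly Slc1a3, Gfap and Aldoc, and the list did not move as a whole. S100b was at 3.44 and 17.0 CPM with sonidegib, 8.68 to 14.3 CPM in parental cells and 23.6 and 13.6 CPM in R13 and R1. Aldh1l1 was at or under 0.131 CPM in every library. The 8 granule progenitor markers summed to 3073.2 and 3233.4 CPM with sonidegib, 2265.2 to 2433.8 CPM in parental cells, 1896.2 and 2009.8 CPM in Sufu mutants and 2156.0 to 2512.3 CPM in Ofd1 mutants. The 6 oligodendrocyte markers ran the other way, at 55.8 and 86.9 CPM with sonidegib, 150.0 to 367 CPM in parental cells, 194 and 481 CPM in Sufu mutants and 227 to 416 CPM in Ofd1 mutants. Of 6 choroid plexus and roof plate markers, Otx2, which granule progenitors also express, was at 29.7 to 58.0 CPM, and Ttr, Lmx1a, Folr1, Kcnj13 and Clic6 were each at or under 0.323 CPM in every library. Whether cells of these types were present in the cultures, and their part in the Id2 values, was not tested. In bulk RNA fewer cells of a type and less RNA per cell cannot be told apart. Lists of 6 genes each for endothelium, fibroblasts and pericytes, and microglia and macrophages, cells in which Id1 and Id3 can be high, summed to at most 13.5, 1.73 and 0.370 CPM in any library, with the endothelial Cldn5 at 0 counts in all 11.

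**Figure D3:**
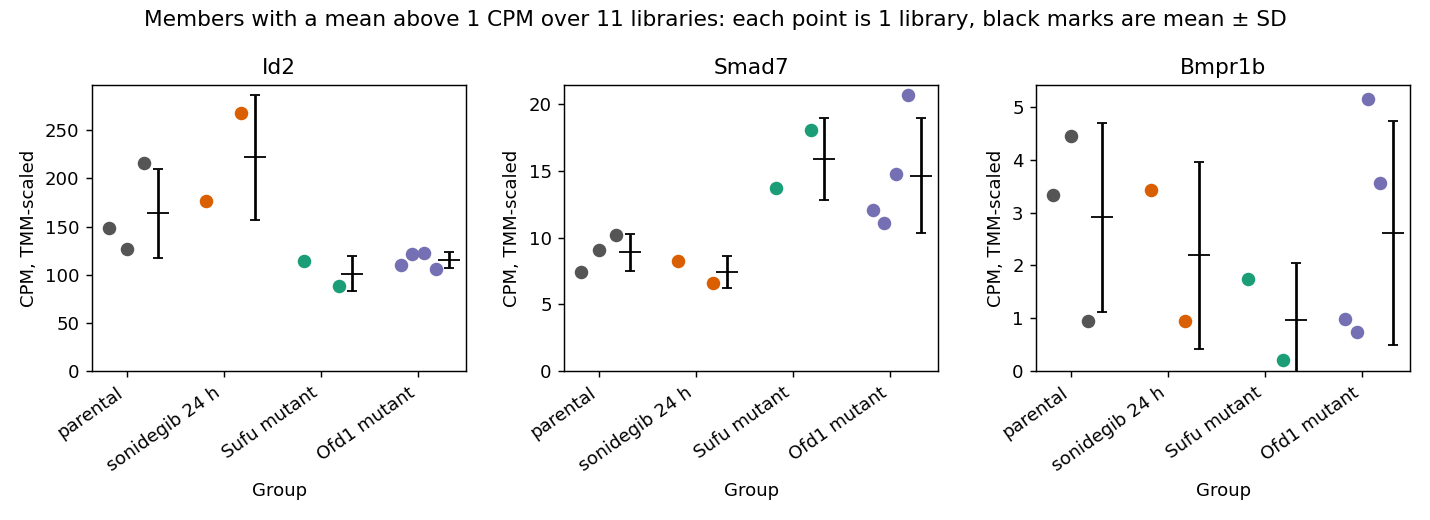
CPM of Id2, Smad7 and Bmpr1b by group; each point is 1 library and the black marks are the mean ± SD of the group, with the lower bar of Bmpr1b in Sufu mutants ending at the axis. The clone libraries lie under the parental ones for Id2 (88.1 to 122 against 127 to 216 CPM) and over them for Smad7 (11.1 to 20.7 against 7.44 to 10.2 CPM), and Bmpr1b spreads widely inside each group.

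The other Id genes were near the detection limit. Id1, the classic BMP target, had 4, 7 and 12 counts in parental replicates 1, 2 and 3 and 5 and 31 counts with sonidegib, the latter in replicate 2. It had 13 and 8 counts in R13 and R1 and 12, 14, 12 and 20 counts in the Ofd1 libraries. The Ofd1 libraries, at 0.372 to 0.524 CPM, lay just above the parental ones at 0.126 to 0.353 CPM, with a log2 difference of 0.95 ± 0.45 (edgeR adjusted p = 0.404). Against parental replicate 3 alone that difference was 0.28. After sonidegib it was 1.27 ± 0.84 from parental cells, and -0.42 without replicate 2.

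Id3, a BMP target in many tissues, had 21 counts in sonidegib replicate 1 and 3 in replicate 2, against 7, 8 and 6 in parental cells. It had 2 and 7 counts in R13 and R1 and 7, 6, 6 and 0 in the Ofd1 libraries, and did not pass the filter. Id4, which marks astrocyte precursors, had 30 and 12 counts with sonidegib against 7, 18 and 6 in parental cells, or 1.00 and 0.354 against 0.177 to 0.476 CPM. It had 5 and 1 counts in the Sufu clones and 1, 2, 6 and 8 in the Ofd1 libraries. The Id4 log2 difference with sonidegib was 1.19 ± 0.72 (edgeR adjusted p = 0.460), and the groups overlapped. It was 0.23 without sonidegib replicate 1 and 1.74 without replicate 2. Id4 overlaps 2 opposite-strand genes in the annotation. No library had more than 31 counts of any of these 3 genes.

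No member was called in any of the 4 comparisons at an edgeR adjusted p under 0.05. With sonidegib 5 members were tested, 0 had an unadjusted p under 0.05 and the background over all genes was 0.0652% called and 14% (1939 of 13809) at that unadjusted level. In Sufu mutants 4 were tested and 2 had an unadjusted p under 0.05, Smad7 and Id2, against 0.00% called and 9.68% over all genes. In Ofd1 mutants 4 were tested and 2 had an unadjusted p under 0.05, again Smad7 and Id2, against 0.363% and 13.8%. Between Ofd1 and Sufu mutants 4 were tested and 0 had an unadjusted p under 0.05, against 0.00713% and 8.93%. DESeq2 called 0 members in each comparison, against 5.64%, 2.25%, 5.50% and 2.00% of all genes. It gave no adjusted p for Id1 and Id4 with sonidegib or for Id1 in Sufu mutants, so it could not call them there. The Sufu and Ofd1 comparisons share the parental libraries, so the like direction of Smad7 and Id2 in both is not independent.

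Groups did not overlap for 0 of 10 members with sonidegib (0 of the 5 tested), where 34.3% of all tested genes were separated (18% higher and 16.2% lower). They did not overlap for 4 of 10 in Sufu mutants (2 of the 4 tested), Smad7 and Bmp7 above and Id2 and Bmp2 below, where 26.6% were separated (12.8% higher and 13.8% lower). In Ofd1 mutants it was 3 of 10 (3 of the 4 tested), Smad7 and Id1 above and Id2 below, where 13.3% were separated (6.39% higher and 6.95% lower). Between Ofd1 and Sufu mutants it was Bmp2 alone (0 of the 4 tested), higher in the former, where 18.3% were separated (9.42% higher and 8.91% lower). Bmp2 and Bmp7 rest on at most 11 counts a library.

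**Figure D4:**
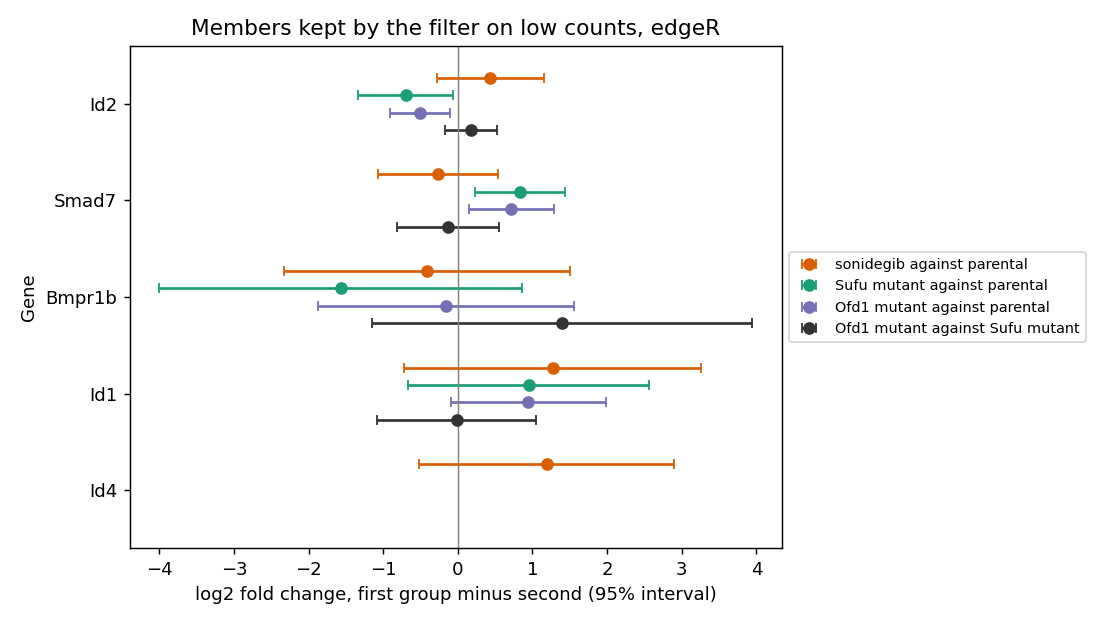
Log2 fold change with its 95% interval for each member kept by the filter on low counts, in the 4 comparisons (first group minus second, edgeR). The intervals of Id2 and Smad7 against parental cells exclude 0 in both clone classes before adjustment over all genes, and those of Bmpr1b and Id1 span 0.

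Around the members, 68 further genes of the pathway were listed, and edgeR called 0 of them in each comparison. With sonidegib 49 were tested, 13 with a positive and 36 with a negative log2 difference, and the median was -0.25 against 0.04 over all genes. Without sonidegib replicate 2, in which long transcripts were under-represented, the median was -0.12 against -0.02, with 31 of 50 negative, and without replicate 1 it was -0.46 against -0.03. The tested pathway genes had a median exon length of 4062 bases, against 3322 over all genes tested, and the part of length in this lean was not tested. An unadjusted p under 0.05 was found for 11 of the 49 with sonidegib, against 14% of all genes. Among these 11, 2 were higher and 9 lower, and the split over all genes at that level is not given here. In Sufu mutants 30 of 50 were positive, with a median of 0.14 against 0.00430. Of the 50, 5 had an unadjusted p under 0.05, against 9.68% of all genes. In Ofd1 mutants 29 of 50 were positive, with a median of 0.06 against 0.00794. Of the 50, 7 had an unadjusted p under 0.05, against 13.8% of all genes. Between Ofd1 and Sufu mutants 21 of 51 were positive, with a median of -0.12 against -0.00326. Of the 51, 6 had an unadjusted p under 0.05, against 8.93% of all genes.

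The number of pathway genes called after sonidegib rested on the test and the library. It was 6 by DESeq2, which called 5.64% of all genes, with Bmp3, Rgma, Runx2, the antagonists Nog and Bmper lower and Hey1 higher. Without sonidegib replicate 1, replicate 2 was the only treated library, and in it long transcripts were under-represented. The pathway genes edgeR called there were Bmpr2, Gdf10, Rgmb, Ski, Smad5, Tcf12 and Tgfbr3, all lower. Their log2 differences ran from -4.01 to -0.73. Their exon lengths ran from 5210 to 12899 bases, against a median of 3322 over all genes tested with sonidegib. The part of length in these calls was not tested, and the share of all genes called in that setting is not given here. Bmpr2, the type II receptor with 12899 bases of exon, was at 8.78 CPM in the remaining replicate, 88.7 CPM in the other and 64.8 to 114 CPM in parental cells. Genes in these sentences other than Bmp3, Rgma, Ski, Smad5, Tcf12 and Hey1 were chosen after their values were seen.

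Of each list, the 2 genes with the highest mean CPM were also examined. The target Hey1, a transcriptional repressor also driven by Notch, was at 230 and 233 CPM with sonidegib and 65.6, 81.2 and 19.3 CPM in parental cells, a log2 difference of 2.06 ± 0.53 (edgeR adjusted p = 0.193). It was at 30.9 and 44.7 CPM in the Sufu clones and 55.3 to 102 CPM in the Ofd1 libraries, which did not overlap each other. Nbl1, a secreted BMP antagonist, was at 220 and 216 CPM with sonidegib against 119, 114 and 183 CPM in parental cells, a log2 difference of 0.65 ± 0.26 (edgeR adjusted p = 0.351). Twsg1, which binds BMPs outside the cell, was at 175 and 165 CPM in the Sufu clones against 196 to 212 CPM in parental cells (log2 difference -0.28 ± 0.13, edgeR adjusted p = 0.547).

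None of the remaining genes named by that rule passed the test. Log2 differences from parental cells ran from -0.17 to 0.35 for the ligand Gdf1, from -0.28 to 0.04 for the Smad corepressor Ski, from -0.06 to 0.01 for the Smad phosphatase Ppm1a and from -0.14 to 0.24 for the E protein Tcf4. Dlx5, a homeobox target, differed by 0.68 ± 0.31 in Ofd1 mutants (edgeR adjusted p = 0.377) and by -0.81 ± 0.47 with sonidegib (edgeR adjusted p = 0.448). Tcf12 was at 763 CPM in R1 and at 201 to 356 CPM in the other 10 libraries, and its difference in Sufu mutants was 0.65 ± 0.31 (edgeR adjusted p = 0.566).

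In the pattern of levels over the 11 libraries, the genes most like Id2 among 10371 with a mean of at least 5 CPM were Dnal4, Leprel4 and Ppapdc1b, with Pearson correlations of 0.967, 0.954 and 0.949 on log2(CPM + 1). Dnal4, a dynein light chain, was at 64.1 and 82.8 CPM with sonidegib, 50.1 to 73.0 CPM in parental cells and 46.4 to 56.8 CPM in the clones. The libraries share groups and depth, and these genes were picked as the highest of all correlations compared. For Id1 the rule gave Snhg3, Lgals1 and H2afj (0.931 to 0.923), all highest in sonidegib replicate 2. For Id3 it gave Klhl24, Xpc and Zfp113 (0.928 to 0.875) and for Id4 Zfp14, Atg14 and Pi4kb (0.909 to 0.894). These 6 genes were highest in sonidegib replicate 1, the library with the most Id3 and Id4 counts.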

How the data were processed

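Per the labels' protocols, stranded poly(A) libraries were made from 500 ng of RNA and read at 75 bases from 1 end in a single run. The authors deposited raw counts of reads per gene symbol; per the submitters' processing notes STAR, DESeq2 and build mm9 were used, while the counting tool and its annotation were not stated there. Of 22620 entries, 1 named no gene, took 0.0131% to 0.0192% of counts and was left out.

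Levels are CPM on TMM-scaled library sizes. Pairs of groups were compared with the two-sided edgeR quasi-likelihood test (edgeR 4.0.16, R 4.3.3, robust, filterByExpr), adjusted by Benjamini-Hochberg over all genes tested, with DESeq2 1.42.0 as an alternative. Intervals of fold changes are 95%. Libraries of a group are the replicates, and R14 gave a pair. Where nothing says that cultures were separate, p-values measure the spread between libraries. Lengths are the union of exons of GENCODE M21 (GRCm38), matched by symbol for 94.7% of the genes compared by length. RefSeq held promoters for Id2, Id3 and Id4 of the 4 Id genes; Id1 was not matched.

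Named genes were the 10 members, any pathway gene called by edgeR, the 2 genes with the highest mean CPM in each pathway list, and the 3 genes most like each Id gene. The members and lists were chosen with earlier results of these data known. The procedure was tested on simulated data in which all genes had the same spread between libraries. That checks the working of the code and does not show how small a difference could be found in these libraries. Alternatives were size factors (RLE), no filter, all groups in 1 fit, each library left out, the R14 pair summed and a replicate block.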

Additional observations from a re-analysis of the deposited data

Results flagged for a closer look

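Id3 had 0 counts in the Ofd1 clone R25 (0 CPM, which allows up to 0.0786 CPM) against 0.185 to 0.217 CPM in the other Ofd1 libraries. The gap took up 0.853 of the range of these 4 libraries, past the limit for an outlying value in a group of 4. Such a gap arises by chance in about 1 of 20 groups, and 10 members were looked at, with 6 or 7 counts of Id3 in each of the other libraries.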

How the results depend on the processing

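No member was called by edgeR or DESeq2 under any of the 42 alternative settings over the 4 comparisons. Of 187 alternative values for the 17 member fold changes, 172 kept the sign, including every value for Id2 and Id4, and 15 did not (8 for Bmpr1b, 6 for Id1, 1 for Smad7). Leaving out single libraries, Bmpr1b ran from -1.67 to 0.21 with sonidegib and from -0.72 to 0.29 in Ofd1 mutants. Id1 ran from -0.42 to 1.98 with sonidegib and from -0.30 to 0.34 between Ofd1 and Sufu mutants, and Smad7 from -0.34 to 0.080 between these classes. Summing the R14 pair gave Bmpr1b 0.11 in Ofd1 mutants and Id1 0.0089 between the classes, where no filter gave 0.0043. For the Ofd1 mutants against parental cells, summing that pair gave Smad7 0.81 ± 0.26 (SE) and Id2 -0.52 ± 0.20 (edgeR adjusted p = 0.284 and 0.354). With parental replicate 3 as the only control Bmpr1b was at 0.048 in Sufu and 1.46 in Ofd1 mutants. The cause was not tested.

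Pathway genes called, 0 by edgeR, were 6, 3, 4 and 1 by DESeq2 for sonidegib, Sufu, Ofd1 and Ofd1 against Sufu. These were out of 49, 50, 50 and 51 kept by the filter, while DESeq2 called 5.64%, 2.25%, 5.50% and 2.00% of all genes. The Sufu calls were Bmp3, Chrd and Runx2, the Ofd1 calls Gata2, Gdf10, Hfe2 and Smurf1, and the last Hey1, all higher and, apart from Bmp3 and Hey1, named after their values were seen. With all groups in 1 fit 1 was called after sonidegib (Rgma). Leaving out single libraries gave 0 to 7 after sonidegib and 0 to 1 in Ofd1 mutants, the latter being Smurf1 without R25. The replicate block on replicates 1 and 2 of parental and sonidegib libraries called 1 (Hey1) and no member. These libraries share only a number: their replicate differences correlated at -0.0257 across genes. The median of the listed pathway genes after sonidegib, recomputed without each library as a choice made after seeing the data, ran from -0.46 to -0.12. Depth limits Bmp2, Bmp4, Bmp7, Smad6, Id1, Id3 and Id4.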

Other observations

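Some pathway genes outside the members divided the libraries of the parental line across the treatment. Chrdl1, a secreted BMP antagonist, had 8.42 and 8.07 CPM in parental replicates 1 and 2 and 4.81 in sonidegib replicate 1, but 1.68 in parental replicate 3 and 0.943 in sonidegib replicate 2. Gdf11, a ligand of the activin branch, was at 14.8, 20.4 and 20.6 CPM in the former libraries and at 4.92 and 4.95 CPM in the latter, the same division as for Bmpr1b. Both genes were chosen after their values were seen.

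Single clones held pathway genes far from the rest. Msx1, a homeobox target of BMP signalling, was at 16.5 CPM in R25 and at 0.247 to 1.89 CPM in the other libraries. Runx2, the bone lineage factor, was at 31.7 CPM in R13 and 1.20 to 12.8 CPM elsewhere, and Gdf10 at 8.73 CPM in R13 and 0.0295 to 2.77 CPM elsewhere. These are single libraries with no replicate of the clone.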
